A study of Parasteatoda tepidariorum with 16 samples.

Results

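Cells drawn from the central (c) region of the stage-4 embryo of the spider *Parasteatoda tepidariorum* were compared with cells drawn from its peripheral (p) region by RNA sequencing (RNA-seq). There were 2 libraries of c cells (c1 and c2) and 2 of p cells (p1 and p2), out of 16 libraries from 3 stages in the series. All 4 came from wild-type embryos of the Osaka isolate at 28 to 29 h after egg laying, with the labels naming the same single mother for each. Cells were sucked from the germ disc with a glass capillary, and the labels give approximately 10 to 100 cells per library without a number for each. A region was thus sampled by its position and not by cell type, so that fewer cells of a type and less RNA per cell cannot be told apart. The sources do not say whether the libraries of a region came from separate embryos, and p-values then measure only the spread between these libraries. The genes described are those with at least 1 CPM (reads of a gene scaled to a common library total) in at least 1 of the 4 libraries, which were 10074 of the 27990 gene models counted by the authors on the genome assembly Ptep_1.0. Of the remaining models, 17323 had no count in any of the 4 libraries and 593 had counts but stayed under 1 CPM. At the edge of this rule, 75 of the genes kept had their highest library between 1 and 2 CPM, and 61 of those left out had it between 0.5 and 1 CPM.

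The germ disc is the sheet of cells on one side of the spider egg from which the body forms. At its centre lies the blastopore, where cells turn inward and give rise to the central endoderm and to the cumulus, a cell cluster that later migrates toward the rim and carries a Dpp (BMP) signal that sets the dorsal side. Cells of the rim contribute to the anterior end of the embryo. They express *Pt-hedgehog* (*Pt-hh*), which codes for a secreted ligand that binds the receptor Patched, thereby releasing Smoothened and the transcription factor Cubitus interruptus.

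The total count on genes was 7228412 in c1, 10045889 in c2, 7100948 in p1 and 8731457 in p2. A count of 0 therefore allows up to 0.302 to 0.479 CPM depending on the library. Such limits and intervals hold for counting error alone, as PCR copies were not told apart by molecular tags. The number of genes reaching 1 CPM was 5973 in c1 and 8414 in c2, against 4511 in p1 and 7799 in p2. Among genes with at least 10 CPM in the other library of the same region, 22.8% had 3 counts or fewer in c1 and 9.35% in c2, against 31.4% in p1 and 7.23% in p2. The 2 libraries with fewer detected genes were thus c1 and p1. Across the 10074 genes, which are not independent replicates, Pearson's correlation of log2(CPM + 1) was 0.67 between c1 and c2 and 0.69 between p1 and p2. Between c and p libraries it was 0.60 to 0.70. The highest value was that of c2 with p2, each of which thus stood closest to a library of the other region. c1 and p1 each stood closest to the other library of their own region. The regional labels were checked against markers. All 5 genes taken as markers of the centre (*g4238*, *fuchi*, *g14287*, *g16467* and *Pt-GATA5*) had more than 3 counts in both c1 and c2. In p1 this held for 1 of 5 and in p2 for 2 of 5. Their summed level was 3602 and 1229 CPM in c cells against 35.3 and 446 CPM in p cells. Nearly all of the p sums came from *fuchi* (34.6 and 446 CPM). *fuchi* is not restricted to the centre, as the study located it also outside the disc and at its rim. *Pt-GATA5* was likewise located in peripheral endoderm at stage 5. The 4 rim markers summed to 225 and 54.6 CPM in c cells against 162 and 755 CPM in p cells, so that these sums overlapped. Of the sum in c1, 198 CPM came from *Pt-fkh* (*g6985*), whose direction turned when c1 or p1 was left out. A set of 5 endoderm markers held *fuchi*, *g20850*, *g17950*, *g12453* and *g1125*. The study located all but *g1125* also in cells outside the disc at stage 3. The 5 summed to 3775 and 1756 CPM in c cells against 35.3 and 841 CPM in p cells. All 5 were above 3 counts in p2, and 1 of them in p1.

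To determine which genes differed between the regions, c cells were compared with p cells by edgeR's quasi-likelihood test, with p-values adjusted (Benjamini-Hochberg) across the 10074 genes, where a positive log2 fold change (log2FC) stands for a higher level in c cells. This gave 49 differentially expressed genes (DEGs, adjusted p under 0.05), or 0.486% of the genes tested. Of these, 44 were higher in c cells (0.437% of the genes tested) and 5 were higher in p cells (0.0496%). At an unadjusted p under 0.05 there were 445 genes, of which c cells were higher in 259 and p cells in 186. In all 44 DEGs of c cells the lower c library was above the higher p library, as in 15.2% of the genes tested, and in all 5 DEGs of p cells the reverse held, as in 13.3%. The DEGs of c cells had mean levels of 127 to 4272 CPM in c cells. Compared per length in the authors' RPKM, their median level in c cells was 167 RPKM, against 7.92 RPKM over all genes tested. The median log2 ratio of c to p means, with 1 CPM added to each, was 3.65 among them and 0.0985 over all genes tested. The number of calls rested on both p libraries. Without p1 or without p2 there were 0 DEGs by the same test (265 and 771 genes at an unadjusted p under 0.05), without c1 there were 6, all among the 44, and without c2 there were 45, of which 37 were among the 49, while the direction of all 49 was the same in each of these fits. As the c and p libraries of all 49 did not overlap, that sameness was largely set in advance and tests nothing. In the fit without p2, moreover, the median log2FC of all genes tested was 3.68, against 0.0749 with all 4 libraries, so that a positive value was common there. DESeq2's Wald test called 299 genes, including 28 of the 44 and all 5, and edgeR's likelihood ratio test called 28, including 16 of the 44 and 1 of the 5.

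**Figure D1:**
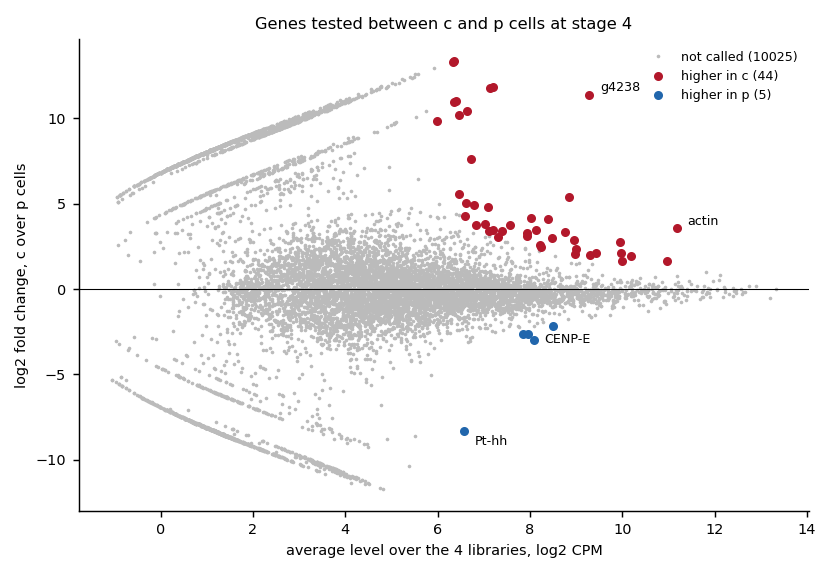
Log2 fold change of c over p cells (vertical axis) against the average level over the 4 libraries in log2 CPM (horizontal axis) for the 10074 genes tested at stage 4. Red points are the 44 DEGs higher in c cells, blue points the 5 higher in p cells and grey points the genes not called; the curved grey lines are genes with few or no counts in one region.

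The DEG with the lowest p was *g4238*, which codes for an Ets transcription factor with a SAM pointed domain and is the first of the Group C genes that the study picked for its level in stage-3 c cells. It had 1982 and 515 CPM in c cells against 0.479 and 0.427 CPM in p cells, where it had 3 and 4 counts. The c libraries differed, and both stood far above the p libraries (2756-fold by means, log2FC 11.39, standard error 1.20, adjusted p = 3.32e-17). The call was lost without p1 (adjusted p = 0.0786) and without p2 (0.345). Among the 9 Group C genes tested, 2 were DEGs, *g4238* and *g15167*, 7 had non-overlapping libraries with c cells higher, and the median log2 ratio was 5.52. Over all genes tested, 0.437% were DEGs of c cells, 15.2% did not overlap in that direction and the median was 0.0985. *g15167*, coding for an EF-hand (calcium-binding) protein, had 852 and 438 CPM in c cells against 29.4 and 117 CPM in p cells (8.78-fold, adjusted p = 0.00113). Its call was lost without c1 (adjusted p = 0.543), p1 (0.937) or p2 (0.418). The twist-related gene *g14287* had 114 and 2.72 CPM in c cells and no count in p cells, and did not pass the test (adjusted p = 0.595), although DESeq2's test called it (adjusted p = 0.000246). None of the 4 tested Group P genes was a DEG, and their libraries overlapped in all 4. Of the 3 tested Group CP genes, 1 was a DEG, *fuchi* (*g26874*). These groups were chosen by the study on its stage-3 libraries, which are not among the 4 compared here.

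*fuchi*, a GATA-like gene of spiders that is needed for endoderm formation, had 1401 and 659 CPM in c cells against 34.6 and 446 CPM in p cells. It was higher in c cells (4.29-fold, log2FC 2.01, standard error 0.50, adjusted p = 0.0152), although p2 was close to c2, and DESeq2's test did not call it (adjusted p = 0.784). Without p1 its adjusted p was 0.937 and its log2FC 1.20, and without p2 they were 0.345 and 4.87, in the fit where the median of all genes tested was 3.68. The other GATA gene tested, *Pt-GATA5* (*g8337*), had 39.1 and 20.5 CPM in c cells and no count in p cells, at least 74.6-fold higher with 3 counts per library taken as the limit, and did not pass (adjusted p = 0.881), although DESeq2's test called it (adjusted p = 0.00878). The remaining 6 of the 8 GATA family genes did not reach 1 CPM in any of the 4 libraries. The study lists many genes changed by *fuchi* knockdown, and the 10 at the top of its stage-3 list by false discovery rate were followed here. Of these 10, 3 were DEGs higher in c cells and 7 had non-overlapping libraries in that direction (0.437% and 15.2% over all genes tested). The DEGs were *g17950* (holotricin-3-like, 417 and 300 CPM in c cells against 0 and 45.3 CPM in p cells), *g12453* (uncharacterized, 1221 and 544 CPM against 0.319 and 214 CPM) and *g27086* (uncharacterized, 413 and 133 CPM against 0 and 40.9 CPM). Each of these 3 was near absent in p1 and present in p2, and DESeq2's test called none of them (adjusted p from 0.901 to 0.954). In the list as a whole the summed level was 3496 and 1809 CPM in c cells against 2.39 and 810 CPM in p cells, with a median log2 ratio of 2.84. Of the 7 genes that the study located at the embryonic pole by in situ hybridization, 3 were DEGs (*g4238*, *g15167* and *fuchi*) and 6 had non-overlapping libraries with c cells higher (15.2% over all genes tested). *g15167* and *fuchi*, as well as *g5118* and *g20850* of this list, were located on the opposite side of the egg too, and are not restricted to the pole.

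**Figure D2:**
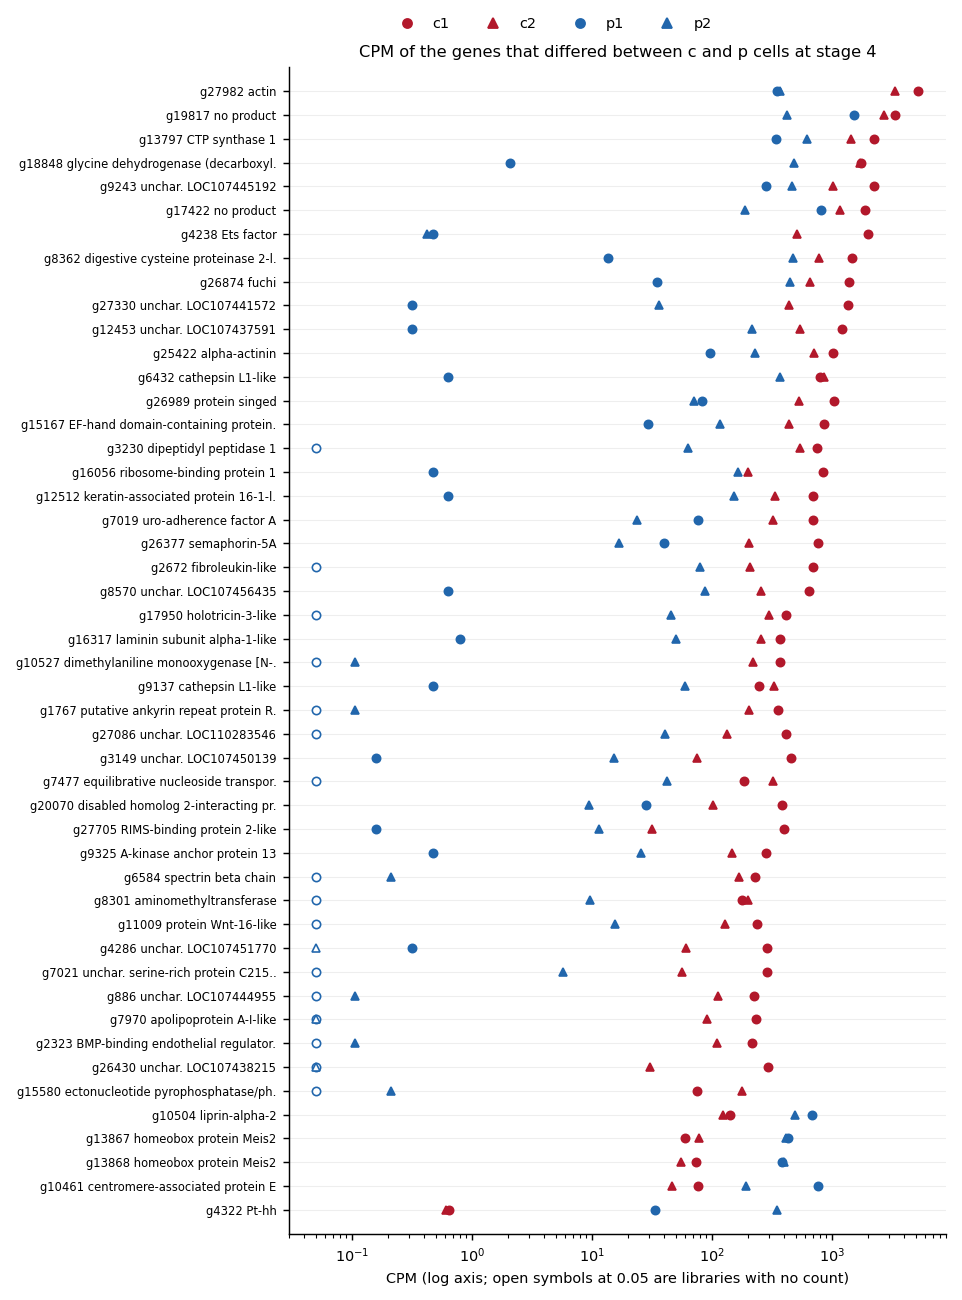
CPM of 48 of the 49 DEGs in each of the 4 stage-4 libraries on a log axis. Red symbols are c1 (circles) and c2 (triangles), blue symbols p1 (circles) and p2 (triangles), and open symbols at 0.05 are libraries with no count. The upper 43 rows, ordered by mean level in c cells, have both red symbols to the right of both blue ones, and the lower 5 rows the reverse.

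Several DEGs higher in c cells code for proteins of the actin cytoskeleton. The actin gene *g27982* (actin, clone 403-like) had 5210 and 3335 CPM in c cells against 346 and 373 CPM in p cells. Libraries of each region were close, and the gene was 11.9-fold higher in c cells (log2FC 3.57, standard error 0.40, adjusted p = 6.83e-15). It stayed a DEG without c1 or c2, and had an adjusted p of 0.0786 without p1 and 0.216 without p2. *g26989*, annotated as protein singed, the actin-bundling protein fascin, had 1039 and 535 CPM in c cells against 82.5 and 71.5 CPM in p cells (10.2-fold, adjusted p = 7.61e-05). Alpha-actinin (*g25422*), which cross-links actin filaments, had 1015 and 709 CPM in c cells against 96.4 and 227 CPM in p cells (5.33-fold, adjusted p = 0.00522). In these 3 genes transcripts were well measured in both p libraries. By contrast, a spectrin beta chain (*g6584*), part of the network below the cell membrane, had 230 and 167 CPM in c cells against 0 and 2 counts in p cells. Without c2, *g26989*, *g25422* and *g6584* were still called, and without c1, p1 or p2 these 3 were not (adjusted p from 0.159 to 0.937). Among 118 tested genes with actin or myosin products, 4 were DEGs higher in c cells and none was a DEG of p cells (0.437% and 0.0496% over all genes tested). Their median log2 ratio was 0.0351, close to that of all genes tested, and 18 (15.3%) had non-overlapping libraries with c cells higher and 21 (17.8%) with p cells higher, near the 15.2% and 13.3% of all genes tested. Another spectrin beta chain (*g5549*) had 51.7 and 56.3 CPM in c cells against 385 and 189 CPM in p cells (adjusted p = 0.177, and 0.0442 by DESeq2). Actin genes are similar to each other, and the uniqueness filter of the alignments could assign their reads unevenly, so that the value of *g27982* is uncertain in this respect.

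Some other DEGs of c cells code for enzymes of metabolism. Glycine dehydrogenase (*g18848*) and aminomethyltransferase (*g8301*), components of the mitochondrial glycine cleavage system, were both higher in c cells. *g18848* had 1744 and 1711 CPM in c cells against 2.08 and 484 CPM in p cells (7.11-fold, adjusted p = 9.99e-06), and *g8301* had 179 and 202 CPM against 0 and 9.72 CPM (39.2-fold, adjusted p = 0.0184). The c libraries were close in both genes, while p1 and p2 differed widely in *g18848*, which DESeq2's test did not call (adjusted p = 0.901). CTP synthase 1 (*g13797*), which makes a nucleotide for RNA and lipid synthesis, had 2236 and 1453 CPM in c cells against 345 and 621 CPM in p cells (3.82-fold, adjusted p = 0.00451). A flavin-containing monooxygenase (*g10527*) had 370 and 219 CPM in c cells against 0 and 1 count in p cells, a ratio of 4604 with a counting interval of 826 to 181857. It was 1 of the 7 DEGs with 1 to 3 counts over both p libraries. The call of *g10527* held without c1 (adjusted p = 0.0389). Without p1 the adjusted p-values of these 4 genes were 0.237 to 0.937, and without p2 they were 0.0922 to 0.478.

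A few DEGs of c cells code for proteases. Dipeptidyl peptidase 1 (*g3230*), a lysosomal protease that activates others, had 745 and 538 CPM in c cells against 0 and 63.2 CPM in p cells (20.3-fold, adjusted p = 1.14e-05). The cathepsin L1-like genes *g6432* and *g9137* had 790 and 859 CPM and 246 and 329 CPM in c cells, against 0.638 and 367 CPM and 0.479 and 59.2 CPM in p cells (adjusted p = 0.0245 and 0.0395). A cysteine proteinase of digestive type (*g8362*) had 1479 and 774 CPM in c cells against 13.7 and 476 CPM in p cells (adjusted p = 0.00656). In these 4 genes p1 was at most 13.7 CPM, and p2 was below both c libraries. DESeq2's test called none of the 4 (adjusted p from 0.107 to 0.999). Reads of similar cathepsin genes could have been split between them by the counting. Among 60 tested genes with yolk, lysosome or endocytosis products, 3 were DEGs, *g6432*, *g9137* and the apolipoprotein A-I-like gene *g7970*, and all were higher in c cells (0.437% over all genes tested). In this list 15 genes (25%) had non-overlapping libraries with c cells higher and 3 (5%) with p cells higher, against 15.2% and 13.3% over all genes tested, and the median log2 ratio was 1.23. A member in the other direction was the cathepsin S-like gene *g6437*, with 0 and 5.03 CPM in c cells against 0.638 and 124 CPM in p cells, which overlapped and did not pass (adjusted p = 0.574). *g7970* had 235 and 91.8 CPM in c cells and no count in p cells, at least 409-fold higher with 3 counts per library taken as the limit (adjusted p = 0.0123). None of these 5 DEGs was called without p1 (adjusted p from 0.281 to 0.937) or without p2 (0.216 to 0.534). Cathepsin B-like *g13754* lay just outside the threshold, with 525 and 445 CPM in c cells against 72.9 and 123 CPM in p cells (adjusted p = 0.0597, and 0.00291 by DESeq2).

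The remaining annotated DEGs of c cells belong to no list. *g1767*, a putative ankyrin repeat protein, had 357 and 205 CPM in c cells against 0 and 1 count in p cells (adjusted p = 0.000161). The ectonucleotide pyrophosphatase gene *g15580*, whose product is known in vertebrates to cleave nucleotides outside the cell, had 75.0 and 179 CPM in c cells against 0 and 2 counts in p cells (adjusted p = 0.0395). These genes were thus near absent in both p libraries. The RIMS-binding protein 2-like gene *g27705* had 401 and 31.8 CPM in c cells against 0.160 and 11.4 CPM in p cells, and the disabled homolog 2-interacting protein gene *g20070* had 384 and 101 CPM in c cells against 28.1 and 9.40 CPM in p cells (adjusted p = 0.0131 and 0.0261). In *g27705* most of the level was in c1. The fibroleukin-like gene *g2672* (694 and 209 CPM in c cells against 0 and 79.8 CPM in p cells) and the A-kinase anchor protein 13 gene *g9325* (280 and 147 CPM against 0.479 and 25.8 CPM) were near absent in p1 and present in p2. The same held for the keratin-associated protein 16-1-like gene *g12512* (696 and 336 CPM in c cells against 0.638 and 153 CPM in p cells) and the ribosome-binding protein 1 gene *g16056* (837 and 198 CPM against 0.479 and 166 CPM), in which p2 was close below c2. DESeq2's test did not call *g2672*, *g12512* or *g16056* (adjusted p from 0.933 to 0.999). Without p1 or p2 none of these 8 genes was called (adjusted p from 0.257 to 0.937).

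Secreted signals and their modulators were among the DEGs in both directions. The *Wnt-16-like* gene *g11009*, coding for a secreted Wnt ligand, had 240 and 129 CPM in c cells against 0 and 15.5 CPM in p cells (23.8-fold, adjusted p = 0.0444). It was the 1 DEG among 14 tested Wnt pathway genes, whose median log2 ratio was 0.80. Over all genes tested, 0.437% were DEGs of c cells and the median was 0.0985. *g2323*, coding for a BMP-binding endothelial regulator protein, which in vertebrates binds BMP ligands outside the cell, had 217 and 109 CPM in c cells against 0 and 1 count in p cells (adjusted p = 0.0123). Of 26 tested BMP and TGF-beta pathway genes it was the 1 DEG (0.437% over all genes tested). In this list 5 genes (19.2%) had non-overlapping libraries with c cells higher and 3 (11.5%) with p cells higher. Over all genes tested these shares were 15.2% and 13.3%. The gene annotated as BMP 4-like (*g16926*, a BMP ligand) had 162 and 83.3 CPM in c cells against 0 and 11.0 CPM in p cells, and did not pass (adjusted p = 0.215). The BMP 2-A-like gene *g15032* had 0.129 and 0 CPM in c cells against 0 and 53.3 CPM in p cells, which overlapped (adjusted p = 0.881). The Dpp antagonist gene *sog* (*g23966*) had 0.259 and 108 CPM in c cells against 0.319 and 43.3 CPM in p cells, which overlapped, and its direction turned without c2. Neither the 18 FGF and EGF pathway genes nor the 16 Notch pathway genes tested held a DEG. The median log2 ratio of the FGF and EGF genes was -0.43, and 4 did not overlap with c cells higher and 3 with p cells higher. *g26565*, an FGF receptor, came close, with 221 and 118 CPM in c cells against 0 and 14.1 CPM in p cells (adjusted p = 0.0654, and 0.0338 by DESeq2). The FGF 8-like gene *g5611* had the other direction, with 0 and 45.0 CPM in c cells against 138 and 73.0 CPM in p cells (adjusted p = 0.881). The genes *g11009*, *g16926* and *g26565* thus had no count in p1, and a level in p2 that was below both c libraries. Semaphorin-5A (*g26377*), a guidance protein, and laminin alpha-1 (*g16317*), a component of the basement membrane, were the 2 DEGs among 78 tested genes of cell adhesion and basement membrane (0.437% over all genes tested). *g26377* had 772 and 205 CPM in c cells against 39.6 and 16.8 CPM in p cells (17.3-fold, adjusted p = 0.000155). *g16317* had 367 and 256 CPM against 0.798 and 50.4 CPM (12.2-fold, adjusted p = 0.0147). The 4 DEGs *g11009*, *g2323*, *g26377* and *g16317* were called without c2 but not without c1, p1 or p2 (adjusted p from 0.418 to 0.974).

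*Pt-hh* (*g4322*; scaffold 547 of Ptep_1.0, from 237576 to 301138) was the DEG of p cells with the lowest p. It had 0.647 and 0.604 CPM in c cells, from 5 and 6 counts, against 33.5 and 347 CPM in p cells. By means it was 304-fold higher in p cells (log2FC -8.31, standard error 1.79, adjusted p = 0.00243), a fold that rests on these few counts. Most of its level was in p2, and p1 was also well above both c libraries. Without p2 *Pt-hh* had a log2FC of -5.72, in the fit where the median of all genes tested was 3.68. With 1 library left out it was not called, with adjusted p-values of 0.159 without c1, 0.0849 without c2, 0.0786 without p1 and 0.613 without p2. Among the 10 tested genes with hedgehog pathway products it was the 1 DEG (0.0496% of all genes tested were DEGs of p cells). The receptor gene *patched-like* (*g14374*) had 150 and 80.2 CPM in c cells against 460 and 447 CPM in p cells, which did not overlap but did not pass (3.94-fold higher in p cells, adjusted p = 0.154). A *cubitus interruptus-like* gene (*g13321*) had 611 and 1401 CPM in c cells against 1144 and 805 CPM in p cells, and overlapped, with a direction that turned without c2 or p2. Of the 6 rim patterning genes tested, *Pt-hh* was the 1 DEG and 3 had non-overlapping libraries with p cells higher, with a median log2 ratio of -2.04 (0.0496%, 13.3% and 0.0985 over all genes tested). The other two were *Pt-lab1* (*g7954*, a homeobox gene of the labial type), with 25.9 and 20.7 CPM in c cells against 97.2 and 273 CPM in p cells (adjusted p = 0.149), and *Pt-opa* (*g12202*, a zinc finger gene of the Zic type), with 47.5 and 40.5 CPM in c cells against 296 and 196 CPM in p cells (adjusted p = 0.203, and 0.0479 by DESeq2).

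A homeobox gene, a mitotic kinesin and a scaffold protein gene were the other DEGs of p cells. The gene models *g13867* and *g13868* lie next to each other on scaffold 1742 (53410 to 174714 and 239023 to 342524) and carry the same NCBI gene, a homeobox gene of the Meis type whose proteins act as partners of Hox factors. *g13867* had 59.9 and 78.1 CPM in c cells against 433 and 419 CPM in p cells (6.17-fold higher in p cells, adjusted p = 0.0258). *g13868* had 73.9 and 55.5 CPM in c cells against 388 and 398 CPM in p cells (6.08-fold, adjusted p = 0.0344). In both models the libraries of a region were close, and they are 1 annotated gene rather than 2 independent results. *extradenticle-like* (*g13538*), whose product partners with Meis proteins in flies, had 0 and 26.2 CPM in c cells against 177 and 64.7 CPM in p cells, and did not pass (adjusted p = 0.547). The 2 Meis models were the only DEGs among 44 tested homeobox genes, whose median log2 ratio was -0.27 (0.0496% of all genes tested were DEGs of p cells, with a median of 0.0985). *g10461*, coding for the mitotic kinesin CENP-E, had 76.3 and 46.8 CPM in c cells against 769 and 194 CPM in p cells (7.82-fold higher in p cells, adjusted p = 0.00543). It was the 1 DEG among 101 tested genes of cell cycle and DNA replication, with a median log2 ratio of -0.13 (0.0496% and 0.0985 over all genes tested). Liprin-alpha-2 (*g10504*), a scaffold protein of cell contacts, had 143 and 124 CPM in c cells against 684 and 497 CPM in p cells (4.42-fold higher in p cells, adjusted p = 0.0468), the highest adjusted p of the 49. The calls of these 4 gene models were lost when any 1 library was left out, with adjusted p-values from 0.160 to 0.937.

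**Figure D3:**
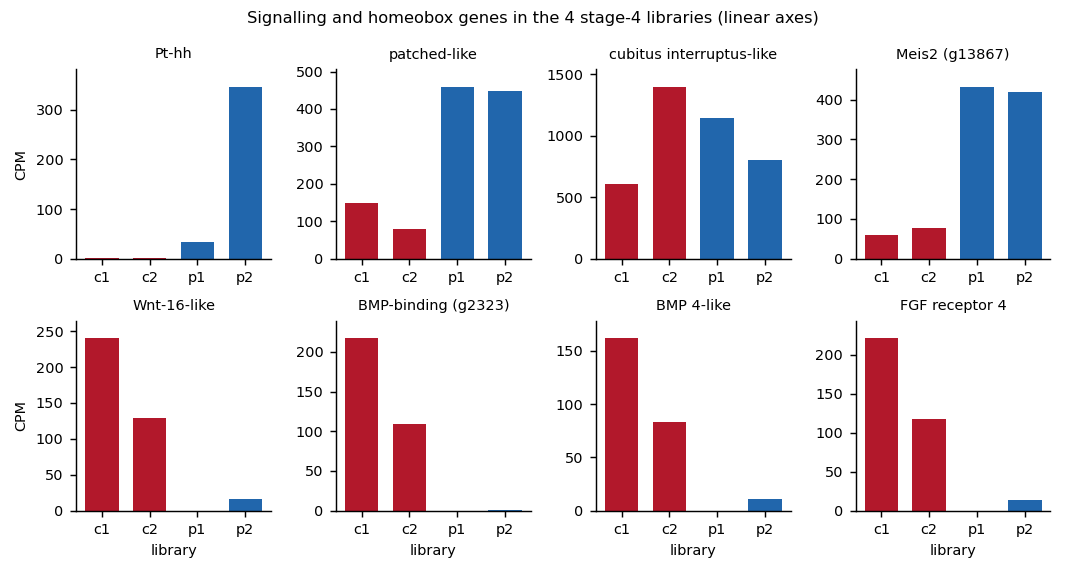
CPM of 8 genes in the 4 stage-4 libraries on linear axes, with c libraries in red and p libraries in blue. In the upper row *Pt-hh*, *patched-like* and the Meis gene were higher in both p libraries while *cubitus interruptus-like* overlapped, and in the lower row the Wnt-16-like, BMP-binding, BMP 4-like and FGF receptor genes were higher in both c libraries, with no count in p1.

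The other gene groups held few DEGs. There was 1 DEG higher in c cells, *g4238*, among 38 tested forkhead, Sox, T-box, bHLH, Ets and nuclear receptor genes, and 1, the nucleoside transporter *g7477* (185 and 323 CPM in c cells against 0 and 42.1 CPM in p cells), among 156 tested solute carriers and transporters. Over all genes tested, 0.437% were DEGs of c cells. DESeq2's test did not call *g7477* (adjusted p = 0.971). Lists with 0 DEGs by edgeR's quasi-likelihood test were zinc finger proteins (264 tested, median log2 ratio -0.18), tubulin, kinesin and dynein (100, 0.0354), histone and chromatin (118, -0.14), cytosolic ribosomal proteins (81, 0.0549), respiratory chain and ATP synthase (68, -0.0348), chaperones and proteasome (124, -0.18), trypsin-type proteases (15, 1.93), germline and maternal RNA (26, -0.34), apoptosis and stress (80, 0.30) and the centre and axis patterning genes (5, 2.41). Over these lists, alpha-catenin and the Group P, Notch, and FGF and EGF lists, 38 of 905 genes had an unadjusted p under 0.05, DESeq2's Wald test called 20 and edgeR's likelihood ratio test called 1. Over all 10074 genes tested these counts were 445, 299 and 28. Alpha-catenin (*g13984*), an adhesion protein that most epithelial cells need, had 275 and 89.0 CPM in c cells against 0 and 90.2 CPM in p cells. It was thus without a count in p1 at a level in p2 close to that of c2. Of the 49 DEGs, 10 have a product named uncharacterized, out of 1571 such genes tested (0.437% of all genes tested were DEGs of c cells). All 10 were higher in c cells, as were 44 of the 49. Among the 1571, 14.4% had non-overlapping libraries with c cells higher and 10.8% with p cells higher, near the 15.2% and 13.3% of all genes tested. The highest per length was *g9243* (1364 RPKM in c cells as the mean of the authors' values), with 2247 and 1014 CPM in c cells against 281 and 467 CPM in p cells (4.36-fold, adjusted p = 0.00235). *g27330* had 1356 and 442 CPM in c cells against 0.319 and 36.3 CPM in p cells (49.1-fold, adjusted p = 7.66e-10), although DESeq2's test did not call it (adjusted p = 0.141). A further 2 DEGs, *g19817* and *g17422*, have no product. *g19817* had 3356 and 2701 CPM in c cells against 1518 and 419 CPM in p cells (3.13-fold), and *g17422* had 1899 and 1159 CPM against 811 and 190 CPM (3.06-fold). In both p1 was above p2, and DESeq2's test called *g19817* (adjusted p = 0.0143) but not *g17422* (0.0620).

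The 44 DEGs of c cells were distributed unevenly over the 4 libraries. In 39 of them c1 was above c2, and in 34 of them p2 was above p1, against 8 with p1 above p2. The matching shares over all genes tested are not given here, so these counts only describe the 44 genes. Of the 44 genes, 26 had 3 counts or fewer in p1 and 9 in p2, and these 9 had so few in both. Among 2832 tested genes with at least 30 CPM in both c libraries, 315 (11.1%) had 3 counts or fewer in p1 and 40 (1.41%) in p2. The median level of the 44 genes was 0.0756% of their mean c level in p1 and 9.47% in p2, and of the 2832 genes 103% and 90.9%. As DEGs the 44 genes had to be low in p cells, so that these shares describe them and test nothing. The 5 endoderm markers, of which all but *g1125* were also located outside the disc, summed to 841 CPM in p2 and 35.3 CPM in p1. They moved with this difference between the p libraries, as did the number of genes detected. The part of either in it was not tested.

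**Figure D4:**
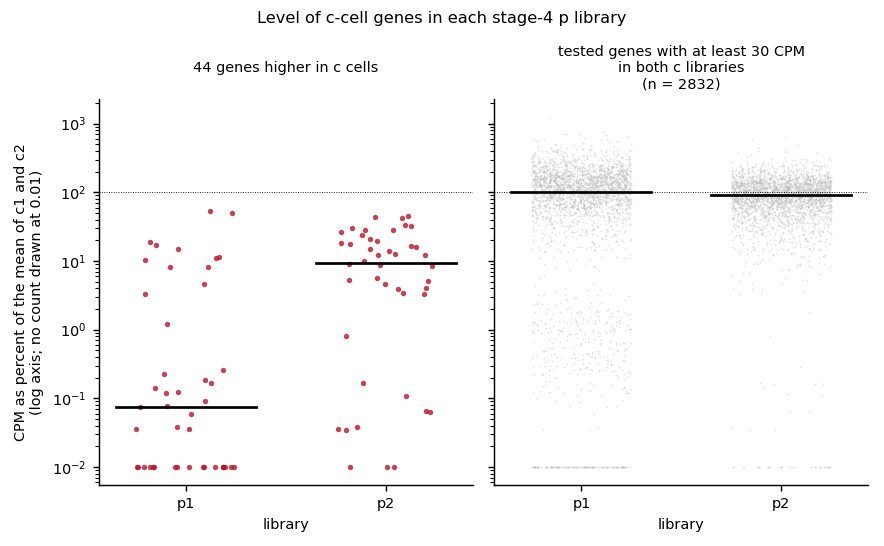
Level of genes in p1 and in p2 as a percentage of their mean CPM in c1 and c2, on a log axis, for the 44 DEGs higher in c cells (left) and for the 2832 tested genes with at least 30 CPM in both c libraries (right). Points are genes, black bars are medians, the dotted line is 100% and genes with no count are drawn at 0.01%; the medians were 0.0756% in p1 and 9.47% in p2 for the DEGs, and 103% and 90.9% for the other set.

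Some DEGs lay beside other genes with the same pattern. *g7019*, annotated as uro-adherence factor A (scaffold 13, from 1352142 to 1366206), had 699 and 326 CPM in c cells against 77.3 and 23.7 CPM in p cells (10.1-fold, adjusted p = 0.00113). *g7021*, a serine-rich protein gene 2 models further on, had 288 and 56.8 CPM against 0 and 5.77 CPM (adjusted p = 0.0259). Between them *g7020* had 334 and 126 CPM in c cells against 53.0 and 8.55 CPM in p cells without passing (adjusted p = 0.114), and it carries the same NCBI gene as *g7019*. The spectrin gene *g6584* likewise follows *g6583*, a model of the same NCBI gene with 17.7 and 41.4 CPM in c cells and no count in p cells (adjusted p = 0.881, and 0.0115 by DESeq2). Reads of 1 gene were therefore divided over several models in these places.

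To see whether the regional differences were found at the neighbouring stages, c and p cells of stage 3 and early stage 5 were compared in the same way, each stage having a mother of its own. At early stage 5, 25 of the 44 genes were also DEGs higher in c cells (0.77% of the genes tested there), 41 had non-overlapping libraries with c cells higher (22.3%), and all 44 had a positive log2FC. At stage 3, of 43 that could be tested, 8 were DEGs (0.245%), 23 had non-overlapping libraries (11.3%), and 37 had a positive log2FC. Of the 5 genes higher in p cells, *Pt-hh* was also a DEG at early stage 5 (0.0423%), where 4 of the 5 did not overlap (12.8%), and none was a DEG at stage 3 (0%), where 1 of the 5 did not overlap (4.92%). Liprin-alpha-2 (*g10504*) was the exception at early stage 5, at a mean of 312 CPM in c cells against 297 CPM in p cells. The difference between stages was tested as the interaction of region with stage over the 13 c and p libraries. Between stage 4 and early stage 5, no gene of 13306 tested passed (0%) by edgeR's quasi-likelihood test, with 81 at an unadjusted p under 0.05, while edgeR's likelihood ratio test called 8. Between stage 4 and stage 3, 9 genes passed (0.0676%), and 3 of them were among the 49 DEGs. These 3 were *g27330*, *g7019* and semaphorin-5A (*g26377*). *g26377* had 17.5 and 0 CPM in stage-3 c cells against 8.70, 20.2 and 92.7 CPM in stage-3 p cells, and its c over p difference was larger at stage 4 by 6.24 on the log2 scale (standard error 1.33, adjusted p = 0.00656). Stage and mother cannot be told apart in these tests.

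**Figure D5:**
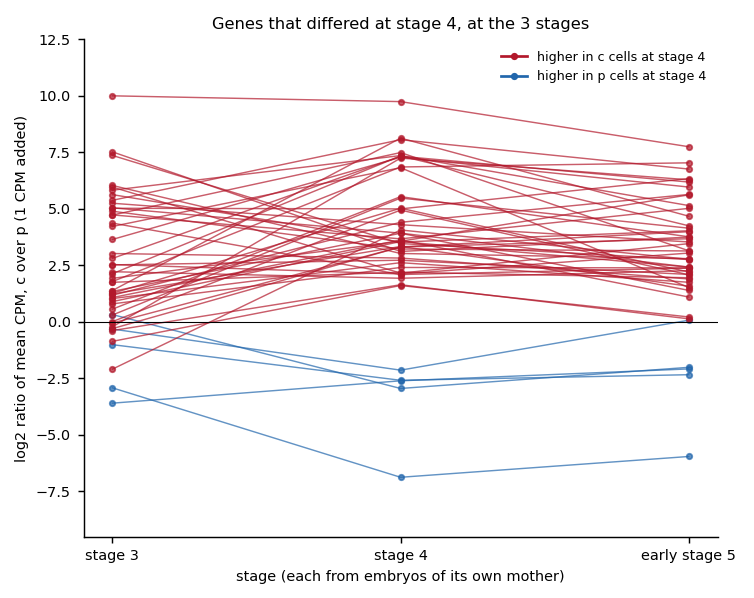
Log2 ratio of mean CPM in c over p cells, with 1 CPM added to each mean, for the 49 DEGs of stage 4 at stage 3, stage 4 and early stage 5. Red lines are the 44 genes higher in c cells at stage 4 and blue lines the 5 higher in p cells; all 44 red lines lie above 0 at early stage 5.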

How the data were processed

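The authors sequenced poly(A) RNA of small cell samples. cDNA was amplified by PCR with a SMARTer stranded kit and sequenced as single-end reads on an Illumina MiSeq. After trimming, the authors placed the reads on Ptep_1.0 by BLAT and kept alignments by coverage, identity and uniqueness. htseq-count then gave the number of reads for each AUGUSTUS model (aug3.1). The deposited counts are raw counts per gene, and all tests used them. The deposited RPKM values, computed by the authors, were used only to compare levels between genes. IDs, products and positions of genes were read from the deposited file, and 5 rows without a gene were left out. All value columns were matched to a sample by name, with 0 unmatched.

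A gene was tested if any of the 4 libraries reached 1 CPM. The test was edgeR's (4.0.16, R 4.3.3) quasi-likelihood test after TMM normalization, with a threshold of 0.05 on p-values adjusted by Benjamini-Hochberg across these genes. CPM values are TMM-scaled. Stages were compared by the interaction of region with stage over 13 libraries. The standard error is the absolute log2FC divided by the square root of the F statistic. Where a region had no count, the fold is a lower bound at 3 counts per library, and at 1 to 3 counts in both libraries together it has a 95% Poisson interval. Tests were tried on simulated counts with known changes.

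Genes to name were taken from up to 12 DEGs per direction with the lowest p among those with non-overlapping libraries, annotated DEGs, members of the ID lists, called members of the lists by product words, and genes of the interaction tests with the larger difference at stage 4. Members of the ID lists and uncharacterized DEGs that are not named are given by counts. Genes outside this rule, such as *g13754*, *g6437*, *g26565*, *g5549*, *g13321*, *g13538*, *g7020* and *g6583*, and those under the other observations were chosen after their values were seen. The values of 1 DEG of c cells are not reported here. Product lists were made by words in the product name and can hold unrelated proteins. The members and lists were chosen with earlier results of these data known. Alternatives were edgeR's likelihood ratio test and its earlier (legacy) quasi-likelihood test, DESeq2 1.42.0, other size factors, other filters, a prior count of 2, the replicate number as a factor, all 16 libraries in 1 fit, and each library left out in turn.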

Additional observations from a re-analysis of the deposited data

Results flagged for a closer look

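The c over p difference of 9 genes differed between stage 4 and stage 3 (interaction of region with stage over 13 libraries, edgeR's quasi-likelihood test, adjusted p under 0.05). A positive value below means that the log2FC of c over p was higher at stage 4. The difference of stage 4 minus stage 3 was 4.75 for *g27330*, 3.64 for *g7019*, 6.24 for *g26377* and 5.05 for *g17630* (no product). It was -2.14 for *g876* (heat shock protein 83), -4.75 for *g4763* and -2.97 for *g3783* (both uncharacterized), -3.91 for *g20563* (cytochrome c oxidase subunit 3-like) and -3.24 for *g14374* (*patched-like*).

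At stage 3 *patched-like* had 249 and 387 CPM in c cells against 381, 49.4 and 0.645 CPM in p cells, so that its p libraries spanned a wide range (adjusted p = 0.0237 for the interaction). *g20563* had 19.3 and 0.101 CPM in c cells against 41.5 and 107 CPM in p cells at stage 4, while the c and p libraries of stage 3 and early stage 5 were all between 954 and 2158 CPM. The chaperone gene *g876* had 1179 and 2460 CPM in c cells against 1776 and 4453 CPM in p cells at stage 4, which overlapped, and 1318 and 2330 CPM in c cells against 825, 619 and 761 CPM in p cells at stage 3, which did not. *g7019* had 963 and 514 CPM in stage-3 c cells against 926, 1020 and 780 CPM in stage-3 p cells, and *g27330* had 278 and 576 CPM against 258, 327 and 281 CPM. In both, the stage-3 libraries of the regions overlapped, and the stage-4 p libraries were low. Of the 9 genes, 0 were called without c1, 3 without c2, 4 without p1 and 3 without p2.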

How the results depend on the processing

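All 49 DEGs kept their direction in each of the 14 alternatives, and each was called in 7 to 12 of them. Their c and p libraries did not overlap, so that this direction was largely set in advance. The 49 DEGs (44 of c cells, 5 of p cells) became 28 (27 and 1) under the likelihood ratio test of edgeR, 17 of them shared, and 299 (184 and 115) under DESeq2, 33 of them shared. The DEGs of p cells were 8 with the legacy quasi-likelihood test and 11 with library sizes alone. With 1 library left out there were 0 to 45 DEGs, 0 to 44 of c cells and 0 to 1 of p cells, the lone library of a region being assumed to vary like the other region. The median log2FC of all genes tested was -0.57 without c2 and 3.68 without p2. The main test treated the libraries as unpaired. The correlation of the c1 minus c2 with the p1 minus p2 difference was -0.0236 over all genes tested. This cannot show whether libraries of the same number came from the same embryo, which the sources do not say. With the replicate block 8 genes were called, 8 of c cells and 0 of p cells, with 248 at an unadjusted p under 0.05 in that fit.

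Between stage 4 and early stage 5 the interaction gave 8 genes with the likelihood ratio test, 0 with the replicate block and 0 whichever 1 library was left out. Between stage 4 and stage 3 the 9 genes became 18 with the likelihood ratio test, none of them shared with the 9, 2 with at least 10 counts in 2 libraries, 8 with the replicate block (6 shared), and 0 to 7 with 1 library left out.

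Of the genes named, 3 that had not passed changed direction. With 1 library left out the log2FC ranged between -6.52 and 7.45 for *sog* (*g23966*), between -0.67 and 0.53 for the *cubitus interruptus-like* gene (*g13321*), and between -1.38 and 1.81 for *Pt-fkh* (*g6985*). With the replicate block that of *g13321* was -0.037. It was also negative without p2 (-0.18), as that of *g6985* was without p1 (-0.25). With 2 libraries per region, total counts of 7100948 to 10045889 and up to 31.4% of the genes found in the other library of a region near absent, a gene that was not called may still differ, also by a large fold. The causes of these changes were not tested.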

Other observations

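Some pairs of gene models with the same or a related product differed in opposite directions, none of which passed the test unless stated. They were picked after their values were seen, and no count of such pairs is given. Over all genes tested, 15.2% had non-overlapping libraries with c cells higher and 13.3% with p cells higher. Fasciclin-2, an adhesion protein, is the product of *g24078*, with 265 and 41.6 CPM in c cells against 0 and 24.4 CPM in p cells (adjusted p = 0.230), and of *g11491*, with 135 and 146 CPM in c cells against 759 and 391 CPM in p cells (adjusted p = 0.0873). Jagged-type Notch ligands were read from *g11708*, with 25.5 and 27.7 CPM in c cells against 0.479 and 0 CPM in p cells, and from *g9162*, with no count in c cells against 35.1 and 26.7 CPM in p cells (adjusted p = 0.881 each). Spectrin beta chains showed the same arrangement, with *g6584* a DEG of c cells and *g5549* higher in both p libraries.

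Among genes just outside the threshold, the kinesin light chain-like gene *g65* had 122 and 120 CPM in c cells and no count in p cells (adjusted p = 0.0527). The guidance receptor gene *g10604* (roundabout homolog 3) had 581 and 48.7 CPM in c cells against 43.4 and 47.5 CPM in p cells (adjusted p = 0.0716), where c2 was barely above p2. The nuclear receptor gene *g794* was read almost only from p2, with 0.129 and 0 CPM in c cells against 0.160 and 167 CPM in p cells (adjusted p = 0.126).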
